A study of Mus musculus with 6 samples.

Results

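The genes described here are 10 mouse genes of bile acid synthesis, conjugation and transport, taken by gene symbol from a table of 57180 genes. They are *Cyp7a1*, *Cyp8b1*, *Cyp27a1* and *Cyp7b1* for synthesis, *Slc27a5*, *Baat*, *Acnat1* and *Acnat2* for conjugation, and *Abcb11* and *Slc10a1* for transport. The set was chosen by pathway and, in part, selected on the measured difference between the same 2 groups of libraries, LOXP and KO. That difference is therefore given for each of these genes as a description, with no p-value. How many of them passed a threshold in the fit over all genes is counted beside the share of all genes that did, and lends the set no support.

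RNA was sequenced from primary hepatocytes, the main cell type of the liver, kept in culture after isolation from male mice (n = 3 libraries per group). The study's reporting form gives a C57BL/6 background and an age of 8 to 10 weeks for its mice in general. The LOXP group came from STING floxed mice, and the KO group from STING liver-specific knockout mice, made by crossing the floxed line with Albumin-Cre mice, in which the recombinase is driven by the albumin promoter of hepatocytes. Both groups came from the floxed line, whose allele is meant to be recombined in KO hepatocytes. Albumin-Cre is named for the KO group only, so the recombinase and the knockout cannot be told apart here. Every culture received palmitic acid at 0.1 mM for 24 h. The methods name MEM alpha medium with dexamethasone, a glucocorticoid, for seeding the isolated hepatocytes. They name no medium for the treatment itself. Neither the labels nor the methods say whether the 3 libraries of a group came from separate mice, so the p-values below measure the spread between these libraries, which may be technical. The comparison asks what STING, an innate immune adaptor of cytosolic DNA sensing, does within hepatocytes themselves, apart from the immune cells of the liver.

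Hepatocytes make bile acids from cholesterol. The classic route starts with *Cyp7a1*, its rate-limiting enzyme, and the alternative route starts with *Cyp27a1* and *Cyp7b1*, while *Cyp8b1* sets how much cholic acid is made. Bile acids are activated with coenzyme A by the ligase encoded by *Slc27a5*, and activated bile acids are joined to taurine or glycine by *Baat*. The conjugates leave across the canalicular membrane through the bile salt export pump, *Abcb11*, and those that return from the gut are taken up from the blood by *Slc10a1*. In the liver, bile acids limit their own synthesis through the nuclear receptor FXR (*Nr1h4*) and its target SHP (*Nr0b2*).

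Counted reads per library ran from 14726983 to 18536985, and chi-square values of replicate pairs were 7.66 to 16.4 times their degrees of freedom, above counting noise. Over the tested genes with a group mean FPKM above 1, no library stood clearly apart from its group. There the root mean square log2 distance of a library from the mean of the other 2 was 0.331 to 0.397. Single markers of other liver cells still differed between libraries of a group, as given below. *Sting1*, the targeted gene, had 19, 16 and 23 counts in LOXP replicates 1, 2 and 3 and 24, 23 and 15 counts in the libraries labelled KO. Its log2 fold change was -0.08, with a standard error of 0.30 (adjusted p = 0.883 in edgeR's quasi-likelihood test). The counts of the targeted gene therefore do not check the labels, and higher or lower in KO below means in the libraries so labelled. The labels do not say which exons were deleted, and reads on any others would still be counted. The study also assayed *sting* by RT-PCR in hepatocytes of both genotypes and reports that the mRNA was lost in the knockout cells. That assay is not analysed here, and the counts above do not show such a loss.

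Of the 10 genes, 9 had enough counts to be compared, 8 of them lower and 1 higher in KO, with a median log2 fold change of -0.57. Over all 14151 genes tested, 7112 were lower and 7039 higher, with a median of -0.0021. By an adjusted p under 0.05 alone, 7 of the 9 counted as lower, where 11.6% of all genes tested did, and 1 counted as higher, where 11.5% of all genes tested did. By the study's 3 criteria (adjusted p under 0.05, absolute log2 fold change above 1 and a group mean FPKM above 1), 4 counted as lower, namely *Cyp8b1*, *Baat*, *Acnat1* and *Acnat2*, against 1.49% of all genes tested. By the same criteria 0 counted as higher, against 0.558%, and 0 did so under DESeq2, since no log2 fold change of the set was above 1. Every KO library lay below every LOXP library for 7 of the 9, against 20.3% of all genes tested, and above for 1, against 20.4%. These counts restate what the genes were chosen for. Without LOXP replicate 3 or without KO replicate 1, the 7 became 4, namely *Baat*, *Acnat1*, *Acnat2* and *Slc27a5*.

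**Figure D1:**
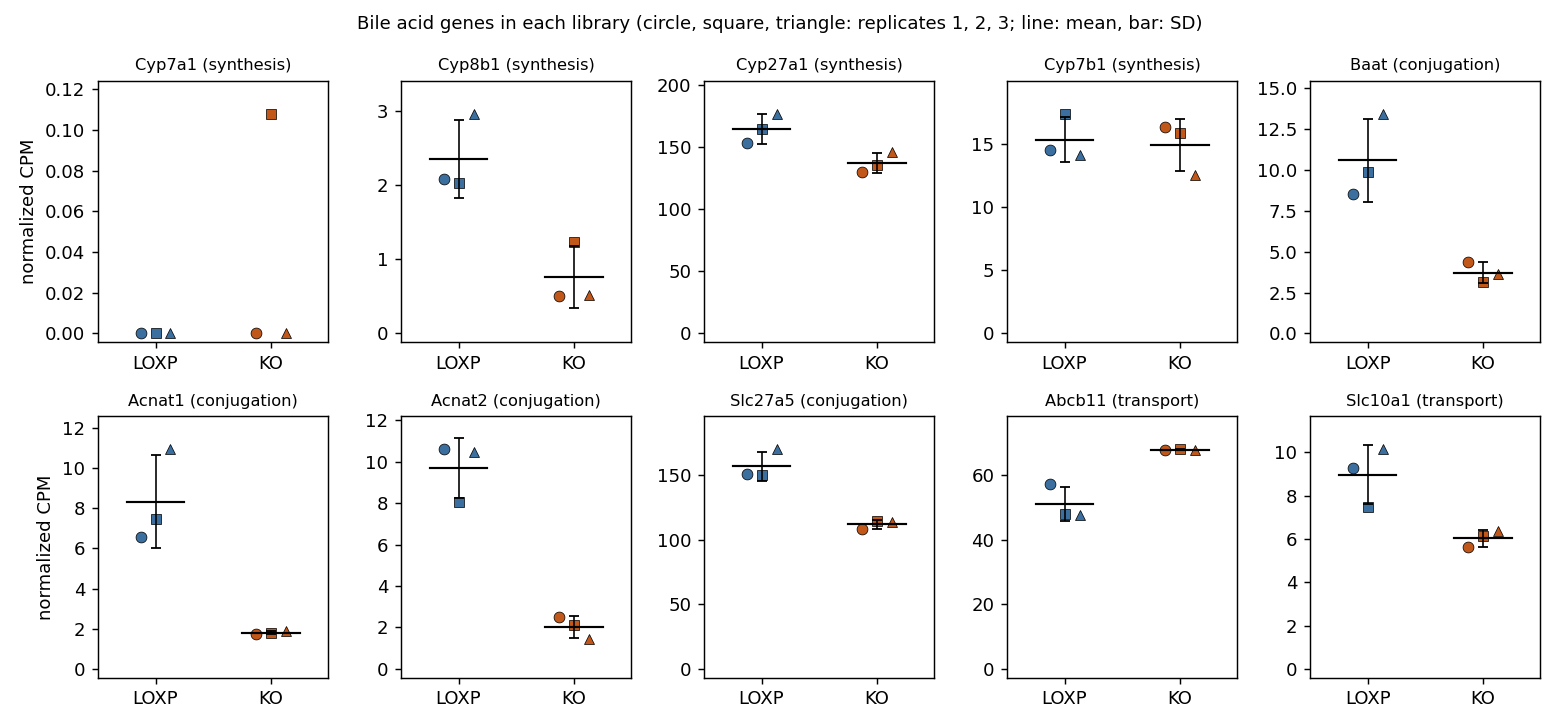
Read counts scaled to normalized library size (CPM, linear vertical axes that include 0) of the 10 genes in the 3 LOXP and 3 KO libraries, each point being a library, the line the group mean and the bar the SD; *Cyp7a1*, with 2 counts in all, has no mean drawn. *Acnat1* and *Acnat2* show the widest gap between groups, *Cyp7b1* overlaps, and *Abcb11* alone lies higher in KO.

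Levels can be compared between genes as FPKM, which divides the count by gene length and library total. In LOXP the order ran from *Cyp27a1* (52.2 ± 3.69, SD, n = 3) and *Slc27a5* (39.9 ± 3.07) through *Abcb11* (7.43 ± 0.856) and *Cyp7b1* (6.97 ± 0.710) to *Baat* (3.49 ± 0.841), *Acnat2* (2.84 ± 0.457), *Acnat1* (2.06 ± 0.576), *Slc10a1* (2.02 ± 0.327) and *Cyp8b1* (1.19 ± 0.271), with *Cyp7a1* at 0. The neighbours *Abcb11* and *Cyp7b1* overlapped, as did each neighbouring pair from *Baat* to *Slc10a1*. In KO, *Cyp27a1*, *Slc27a5*, *Abcb11* and *Cyp7b1* kept this order without overlap, and *Slc10a1* (1.40 ± 0.0946) and *Baat* (1.25 ± 0.220) came next and overlapped. *Acnat2* (0.604 ± 0.153), *Acnat1* (0.454 ± 0.0219) and *Cyp8b1* (0.392 ± 0.212) followed, all below an FPKM of 1, and each pair of neighbours among them overlapped. The enzyme of side-chain oxidation and the activating ligase thus had the most transcript per length in both groups, and the enzyme that starts the classic route had almost none.

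**Figure D2:**
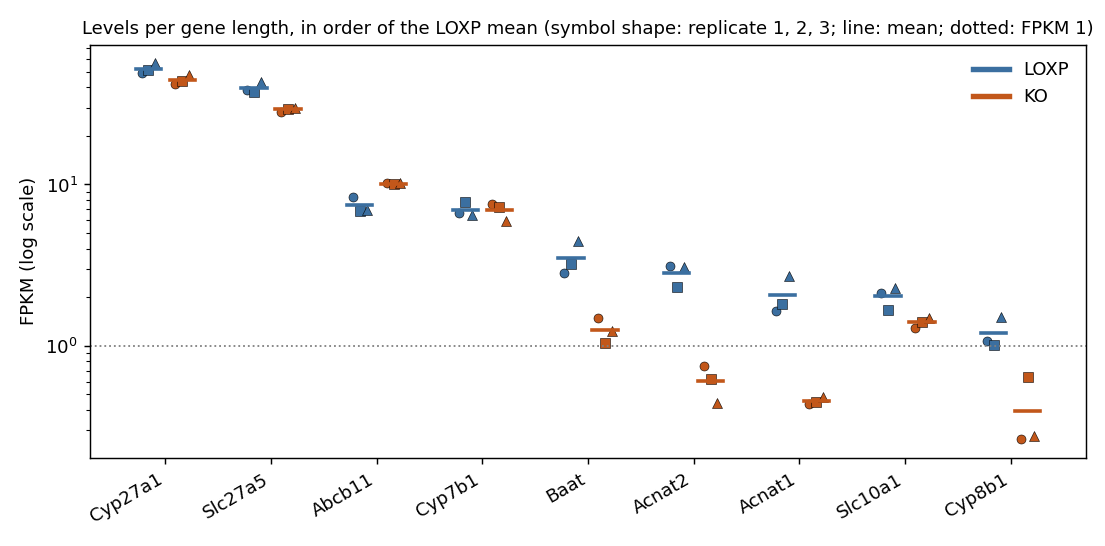
FPKM (logarithmic vertical axis) of 9 of the genes in each LOXP (blue) and KO (orange) library, in order of the LOXP mean, with lines at group means and a dotted line at an FPKM of 1; *Cyp7a1* is left out because a value of 0 has no place on this axis. *Acnat2*, *Acnat1* and *Cyp8b1* lie above the dotted line in every LOXP library and below it in every KO library.

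*Cyp7a1* (ENSMUSG00000028240, GRCm39 chromosome 4, 6265612 to 6275633) had 0 counts in 5 of the 6 libraries and 2 counts in KO replicate 2. A count of 0 allows a level of up to 3 counts, or 0.175 to 0.210 CPM depending on which of the 5 libraries is meant. No fold change can be given, and a difference between groups was not detectable at this depth.

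*Cyp8b1* (ENSMUSG00000050445, chromosome 9, 121743422 to 121745371), which encodes the sterol hydroxylase needed for cholic acid, had 33, 29 and 45 counts in LOXP replicates 1, 2 and 3 and 8, 23 and 9 counts in KO. All KO libraries lay below all LOXP libraries, and KO replicate 2 stood closer to LOXP than KO replicates 1 and 3 did. In CPM, the count scaled to the normalized library size, this was 2.36 ± 0.525 in LOXP and 0.759 ± 0.418 in KO (SD, n = 3 each), a log2 fold change of -1.60 (standard error 0.376), or 3.04-fold lower. The change was -2.17 without KO replicate 2.

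*Cyp27a1* (ENSMUSG00000026170, chromosome 1, 74752733 to 74777051), the mitochondrial hydroxylase that opens the alternative route, measured 153.0, 164.2 and 176.7 CPM in LOXP and 129.9, 135.8 and 146.0 CPM in KO. The groups did not overlap, but KO replicate 3 and LOXP replicate 1 were close. The mean was 16.6% lower in KO (log2 fold change -0.26, standard error 0.0727). *Cyp7b1* (ENSMUSG00000039519, chromosome 3, 18126114 to 18297502), which hydroxylates the oxysterol that *Cyp27a1* makes, measured 14.51, 17.34 and 14.09 CPM in LOXP and 16.32, 15.81 and 12.54 CPM in KO. Its groups overlapped, with means of 15.3 ± 1.77 and 14.9 ± 2.05 and a log2 fold change of -0.04 (standard error 0.135). That value ran from -0.11 to 0.07 over the alternatives, so no direction can be given. The synthesis genes of the set were thus unlike one another, with *Cyp8b1* far lower in KO, *Cyp27a1* a little lower and *Cyp7b1* level within its spread.

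RefSeq's promoter table (GRCm38.p6, a different build from that of the expression table) holds windows of 300 bases, from 250 before to 50 after an annotated start, for 6 of the 10 genes, 8 windows in all, *Acnat2* and *Slc10a1* having 2 each. For *Acnat2* the stretch shown is from the window that holds the palindrome named next. The 150 bases before the start are shown for *Cyp8b1*, *Acnat2* and *Acnat1*, the 3 genes with a window that were lowest in KO relative to LOXP, all on the minus strand and written 5′ to 3′, at chr9:121916306-121916455, chr4:49408152-49408301 and chr4:49451110-49451259. Capitals mark a match to the HNF4 alpha motif CAAAGTCCA in *Cyp8b1* and, in *Acnat2*, overlapping matches on both strands to the glucocorticoid receptor palindrome AGAACANNNTGTTC. In *Acnat1* nothing is marked.
Cyp8b1: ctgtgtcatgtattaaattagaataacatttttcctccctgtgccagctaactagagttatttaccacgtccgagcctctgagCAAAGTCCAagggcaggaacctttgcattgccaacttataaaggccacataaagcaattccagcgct
Acnat2: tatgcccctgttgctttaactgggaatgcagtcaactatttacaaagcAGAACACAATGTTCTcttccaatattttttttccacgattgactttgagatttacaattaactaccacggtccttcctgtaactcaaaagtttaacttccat
Acnat1: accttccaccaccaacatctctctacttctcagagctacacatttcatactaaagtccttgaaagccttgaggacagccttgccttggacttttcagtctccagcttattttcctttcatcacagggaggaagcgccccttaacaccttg
The *Cyp8b1* match lies 67 to 59 bases before the start, and 0.475% of all 32851 windows hold one. The *Acnat2* match begins 102 bases before the start, and 16 windows of all 32851 (0.0487%) hold this palindrome. The TATA box TATAAA, in 13.6% of all windows, was found in those of *Cyp8b1* and *Slc10a1*. All motifs were searched on both strands, and none of the 8 windows held CAAGGTCA (LRH-1, 1.56% of all windows), AGGTCANTGACCT (FXR, 0.00913%), GGACTTTCC (NF-kB, 0.344%), TTGCGCAA (C/EBP, 0.183%) or TTTCNNTTTC (interferon-stimulated response element core, 3.44%). These motifs were kept after the matches of a wider set had been seen, and not every motif searched is reported here. A match is a run of letters and not a measured binding site, and these windows are those of annotated starts, whose use in these cells was not measured.

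The 4 conjugation genes were all lower in KO, and 3 of them, *Baat*, *Acnat1* and *Acnat2*, lie next to one another on chromosome 4. *Slc27a5* (ENSMUSG00000030382, chromosome 7, 12722273 to 12732119), the bile acid coenzyme A ligase, measured 150.5, 150.1 and 169.8 CPM in LOXP and 108.0, 114.6 and 113.3 CPM in KO. The groups stood apart with little spread, and the mean was 28.6% lower in KO (log2 fold change -0.49, standard error 0.0675). *Baat* (ENSMUSG00000039653, chromosome 4, 49489422 to 49506557), which encodes the bile acid coenzyme A amino acid N-acyltransferase, measured 8.519, 9.860 and 13.43 CPM in LOXP and 4.398, 3.130 and 3.616 CPM in KO. LOXP replicate 3 was the highest and the groups did not overlap. The means were 10.6 ± 2.54 and 3.71 ± 0.640 CPM, 2.86-fold lower in KO (log2 fold change -1.52, standard error 0.211).

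*Acnat1* and *Acnat2* encode relatives of the *Baat* enzyme that join amino acids to acyl coenzyme A, *Acnat1* being known for joining taurine to fatty acids in peroxisomes. *Acnat1* (ENSMUSG00000070985, chromosome 4, 49447105 to 49473912) measured 6.563, 7.483 and 10.93 CPM in LOXP and 1.721, 1.781 and 1.866 CPM in KO. *Acnat2* (ENSMUSG00000060317, chromosome 4, 49379840 to 49408151) measured 10.60, 8.042 and 10.47 CPM in LOXP and 2.486, 2.104 and 1.458 CPM in KO. In both genes the highest KO library lay far below the lowest LOXP library, and the KO values of *Acnat1* were nearly equal. The changes were 4.63-fold lower for *Acnat1* (log2 fold change -2.21, standard error 0.230) and 4.82-fold lower for *Acnat2* (-2.27, standard error 0.217), the largest among the 9 genes compared. The longest coding transcripts of both, in GENCODE M21, are 95.3% identical over 1457 aligned bases, and 6.59% of the 150-base stretches of *Acnat1* occur unchanged in *Acnat2*, so reads of the pair could have been split or set aside in counting. With their counts summed there were 272, 222 and 325 counts in LOXP and 66, 72 and 57 in KO, or 4.74-fold fewer (log2 fold change -2.24, standard error 0.162). The *Baat* transcript is 61.5% identical to that of *Acnat1* and 61.9% to that of *Acnat2*, with no shared stretch of 50 bases.

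The region from the start of *Acnat2* to the end of *Baat* spans 126.7 kb, and tested genes on each side of it were compared in the same way. *Mrpl50*, a mitochondrial ribosomal protein gene that begins 6.04 kb past *Baat*, measured 49.4 ± 4.37 CPM in LOXP and 48.7 ± 4.42 in KO (log2 fold change -0.02, adjusted p = 0.896 in edgeR's quasi-likelihood test). The next reported gene, *Zfp189*, had a log2 fold change of -0.11 (adjusted p = 0.649). On the other side the nearest tested gene, *Msantd3*, ends 818 kb from *Acnat2* and had -0.31 (adjusted p = 0.367). Farther off, *Tex10* rose by 0.38 (adjusted p = 0.0111) and the pseudogene *Gm12435* by 0.24 (adjusted p = 0.0358). Apart from these 2, the flanking genes reported here did not pass, and since not all are reported, these values do not show that the change ends at *Baat*. The *Gm12435* call ended under DESeq2 (adjusted p = 0.0900), with every gene of at least 1 count kept (0.0670) and without any single library, at 0.0860, 0.0561 and 0.0801 without LOXP replicates 1, 2 and 3 and 0.120, 0.0928 and 0.0827 without KO replicates 1, 2 and 3. Its adjusted p lay between 0.00699 and 0.120 in the alternatives.

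**Figure D3:**
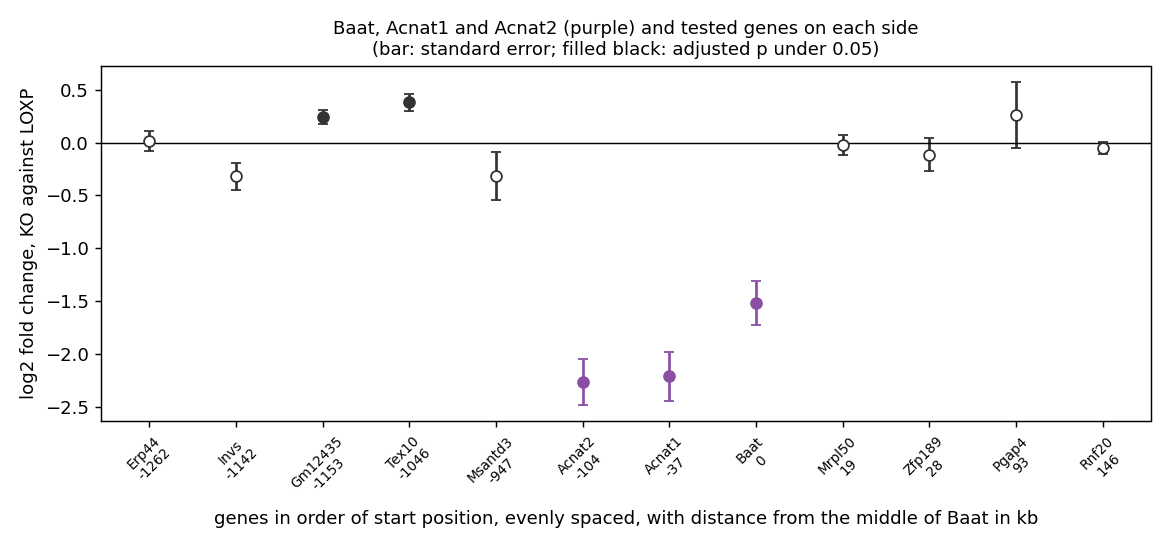
Log2 fold change of KO against LOXP (vertical axis, bars are standard errors) for *Acnat2*, *Acnat1* and *Baat* (purple) and the reported genes on each side, evenly spaced in order of start position, with the distance from the middle of *Baat* in kb under each name; filled black points have an adjusted p under 0.05. *Mrpl50* and *Zfp189* lie near 0 beside *Baat* at -1.52.

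The 2 transport genes went opposite ways. *Abcb11* (ENSMUSG00000027048, chromosome 2, 69068626 to 69172958), the bile salt export pump, measured 57.17, 48.04 and 47.80 CPM in LOXP and 67.94, 67.99 and 67.65 CPM in KO. All KO libraries were higher than all LOXP libraries and nearly equal to one another. The mean was 33.0% higher in KO (log2 fold change 0.41, standard error 0.0834), and *Abcb11* was the only gene of the set that was higher. *Slc10a1* (ENSMUSG00000021135, chromosome 12, 80999957 to 81015479), the sodium-dependent uptake carrier, measured 9.277, 7.483 and 10.14 CPM in LOXP and 5.609, 6.152 and 6.356 CPM in KO. Its groups did not overlap, and its mean was 32.6% lower in KO (log2 fold change -0.57, standard error 0.151).

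**Figure D4:**
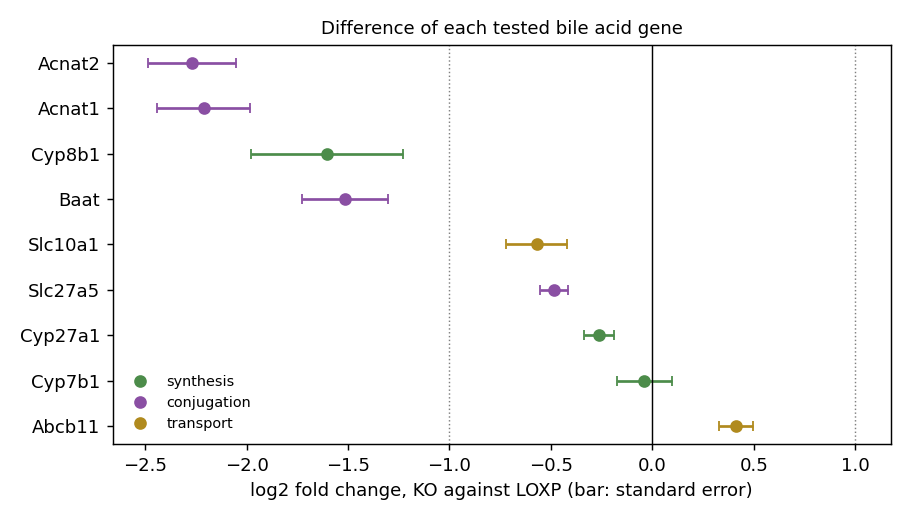
Log2 fold change of KO against LOXP (horizontal axis, bars are standard errors) of the 9 genes compared, coloured by role, with dotted lines at the study's threshold of 1 on either side. *Acnat2*, *Acnat1*, *Cyp8b1* and *Baat* lie beyond the lower line, and *Abcb11*, at 0.41, is the only gene to the right of 0.

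The spread among replicates also differed within the set. In LOXP the coefficient of variation was 7.20% for *Cyp27a1* and 7.19% for *Slc27a5* but 23.9% for *Baat* and 27.7% for *Acnat1*. LOXP replicate 3 was the highest LOXP library for 6 of the 9 genes, namely *Cyp8b1*, *Cyp27a1*, *Baat*, *Acnat1*, *Slc27a5* and *Slc10a1*, while in KO each library was the highest for 3 of the 9. Without LOXP replicate 3 the log2 fold changes were -1.31 for *Baat*, -1.97 for *Acnat1* and -1.41 for *Cyp8b1*. On a log2(FPKM + 1) scale, on which the added 1 shrinks the change of low genes, they were -0.98 for *Baat*, -1.06 for *Acnat1*, -1.26 for *Acnat2*, -0.66 for *Cyp8b1* and -0.33 for *Slc10a1*.

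The genes whose normalized levels tracked *Baat* most closely over the 6 libraries were *Cryl1* (Pearson r = 0.999), *Cacfd1* (0.998) and *Plekhb2* (0.997) among 11093 genes with a mean FPKM above 1. Their log2 fold changes were smaller, at -0.49, -0.44 and -0.26. Since the libraries form 2 groups that differ in *Baat*, such a coefficient mostly reflects the groups, and 317 genes had one above 0.95. For *Cyp7a1* no such measure could be taken.

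Beyond the set, 44 other genes of the bile acid pathway were listed by role, and 40 had enough counts to be tested with edgeR's quasi-likelihood test and adjustment over all genes. Of these 40, 28 were lower and 12 higher in KO, with a median log2 fold change of -0.47. By adjusted p, 17 fell, 5 rose and 18 did not pass, beside the 11.6% and 11.5% of all genes tested. The same shares stand beside the counts per role below. By the study's 3 criteria, *Cyp39a1*, *Cyp2a12*, *Nr0b2* and *Nr1i2* were lower, against 1.49% of all genes tested, and *Abcc4* was higher, against 0.558%. *Cyp46a1*, *Sult2a1*, *Slc51a* and *Slc51b* had too few counts, and *Sult2a1* and *Slc51a* had none.

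Of 13 other synthesis genes tested, 6 fell and 1 rose. *Cyp39a1*, an oxysterol hydroxylase, fell from 47.9 ± 1.55 to 18.2 ± 0.779 CPM (SD, n = 3 each), a log2 fold change of -1.40 (adjusted p = 1.71e-05). On the log2 scale, *Cyp2a12*, which restores hydroxyl groups of bile acids returned from the gut, fell by 1.05 (adjusted p = 8.72e-05), and *Cyp2c70*, which makes the muricholic acids of mice, fell by 0.94 (adjusted p = 1.25e-04). *Akr1d1*, the steroid reductase of the ring, had 40, 16 and 21 counts in LOXP and 4, 5 and 1 in KO, and fell by 3.06 (adjusted p = 0.00480). The peroxisomal side-chain oxidase *Acox2* fell by 0.59 (adjusted p = 0.00301) and the peroxisomal importer *Abcd3* by 0.28 (adjusted p = 0.0156). The rising gene was *Akr1c6*, a hydroxysteroid dehydrogenase, at 0.82 (adjusted p = 0.0216). *Hsd17b4*, the bifunctional enzyme of peroxisomal oxidation and the most abundant of the 13, had -0.10 (adjusted p = 0.220). The *Abcd3* and *Akr1c6* calls were lost in some alternatives. *Abcd3* had an adjusted p of 0.0569 without KO replicate 2 and 0.0620 without KO replicate 3, in a range from 0.00469. *Akr1c6* had 0.0731 under DESeq2, 0.0681 without LOXP replicate 3, 0.0752 without KO replicate 1 and 0.0689 without KO replicate 2, in a range from 0.00566.

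Among the 4 tested genes of taurine supply and sulfation, *Cdo1*, the cysteine dioxygenase on the route to taurine, fell from 125.9 ± 4.004 to 69.3 ± 5.40 CPM (log2 fold change -0.86, adjusted p = 1.79e-04). *Slc6a6*, the taurine transporter, rose from 310.4 ± 6.87 to 392.4 ± 22.6 CPM (0.34, adjusted p = 0.00377). The enzyme of the next step to taurine, *Csad*, had -0.47 (adjusted p = 0.0894) and the sulfotransferase *Sult2a8* had -0.46 (adjusted p = 0.208). The gene that makes a taurine precursor and the gene that imports taurine thus moved in opposite directions.

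Of 11 other transport genes tested, 4 fell and 3 rose. *Abcc4*, a basolateral exporter of bile acids to the blood, had 361, 411 and 332 counts in LOXP and 1215, 1447 and 1249 in KO, and rose 3.11-fold (log2 fold change 1.64, adjusted p = 5.17e-05). *Abcc3*, another basolateral exporter and the most abundant of the 11, rose by 0.20 (adjusted p = 0.0307), and the canalicular *Abcc2*, which exports conjugates to bile, rose by 0.26 (adjusted p = 0.0199). Under DESeq2 4 rose, the added gene being *Slco1a1*, an uptake carrier with 0.55 (adjusted p = 0.0655 in edgeR and 0.0417 under DESeq2). *Abcb4*, which moves phosphatidylcholine into bile, fell by 0.96 (adjusted p = 1.50e-04), *Atp8b1*, a canalicular phospholipid flippase, by 0.49 (adjusted p = 0.00491), and *Slco1a4*, an uptake carrier with 36, 31 and 28 counts in LOXP and 9, 18 and 7 in KO, by 1.66 (adjusted p = 0.00902). *Abcg8*, which exports sterols together with *Abcg5*, fell by 0.89 (adjusted p = 0.0266), while *Abcg5* itself had 0.04 (adjusted p = 0.943). The calls of *Abcc3*, *Abcc2* and *Abcg8* were lost in some alternatives. *Abcc3* had an adjusted p of 0.0639 and 0.0770 without LOXP replicates 1 and 3 and 0.0527, 0.114 and 0.0680 without KO replicates 1, 2 and 3, in a range from 0.0136. *Abcc2* had 0.0668 without LOXP replicate 3 and 0.0845 and 0.0626 without KO replicates 2 and 3, in a range from 0.00752. *Abcg8* had 0.0847 without LOXP replicate 3 and 0.0908 and 0.0855 without KO replicates 2 and 3, in a range from 0.0166. Over the whole pathway list the 5 genes that rose became 2 without LOXP replicate 3 or KO replicate 2 and 3 without KO replicate 1 or KO replicate 3.

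Of 12 regulators tested, 6 fell and 0 rose in edgeR's quasi-likelihood test. At an unadjusted p under 0.05, 1 of them was higher, and the adjusted count was 0 under DESeq2, 1 with limma on log2(FPKM + 1) and 0 on log2(FPKM + 0.1). *Nr0b2* (SHP) had 20, 25 and 40 counts in LOXP and 2, 5 and 11 in KO, a log2 fold change of -2.40 (adjusted p = 0.0113). *Nr1h4* (FXR), the bile acid receptor that induces it, fell from 32.2 ± 3.41 to 22.1 ± 2.26 CPM (-0.54, adjusted p = 0.00939). *Nr1i2*, the xenobiotic receptor PXR, fell by 1.37 (adjusted p = 4.97e-04), and *Fgfr4*, the receptor for the gut hormone that represses bile acid synthesis, by 0.59 (adjusted p = 0.00939). *Hnf4a*, a central factor of hepatocyte identity and the most abundant of the 12, fell from 284.9 ± 14.1 to 188.9 ± 7.21 CPM (-0.59, adjusted p = 3.38e-04), and *Nr5a2* (LRH-1) fell by 0.51 (adjusted p = 0.0214). *Rxra*, the partner of FXR and PXR, had -0.07 (adjusted p = 0.489), and *Klb*, the coreceptor of *Fgfr4*, 0.47 (adjusted p = 0.0737). *Nr5a2* had an adjusted p of 0.0645 without KO replicate 1 and 0.0768 without KO replicate 3, in a range from 0.00228, and *Nr0b2* had 0.0503 without KO replicate 2, in a range from 9.11e-04.

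**Figure D5:**
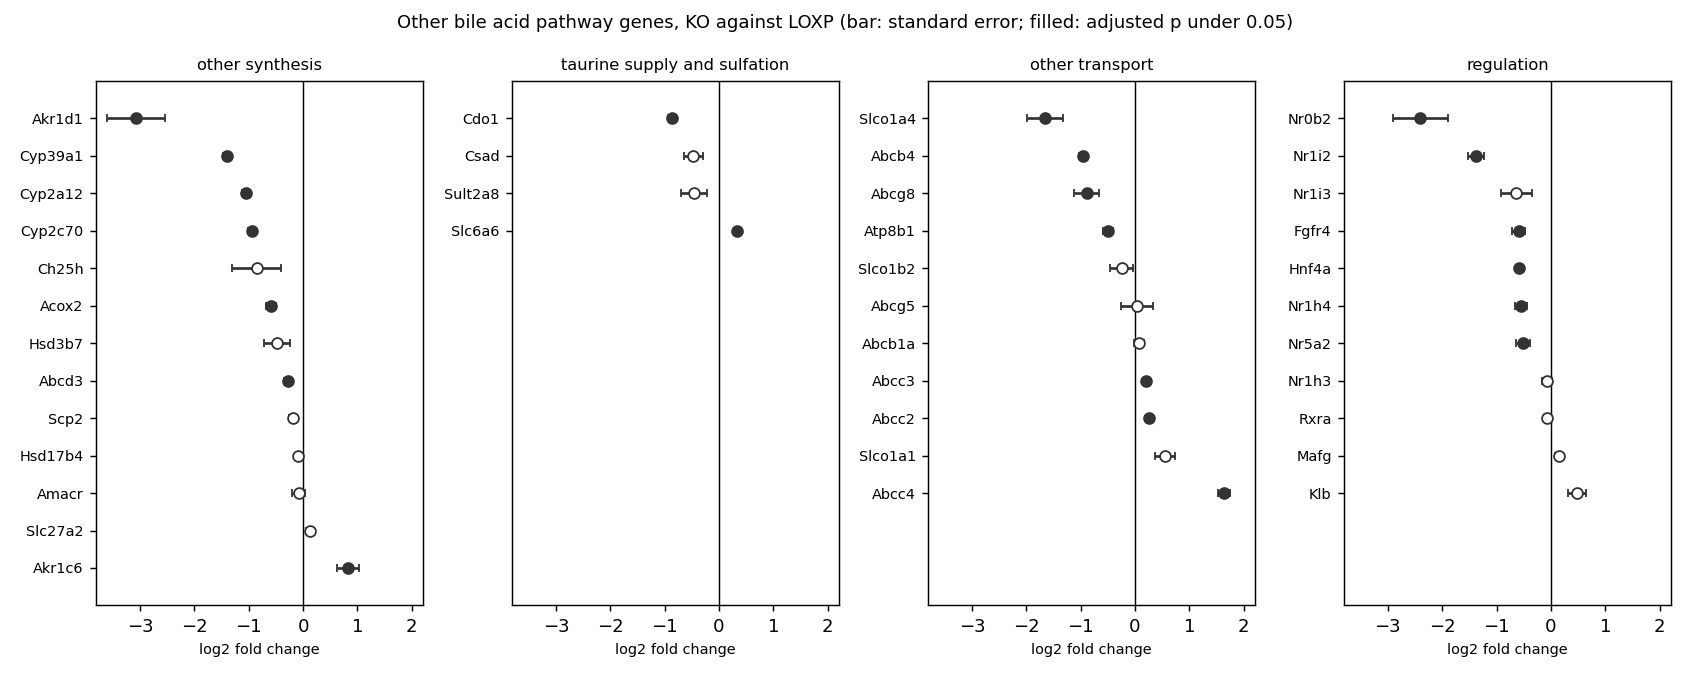
Log2 fold change of KO against LOXP (horizontal axes, bars are standard errors) for the reported genes of the bile acid pathway outside the set, in panels by role, with filled points for an adjusted p under 0.05. Regulators that pass lie left of 0 without exception, from *Nr0b2* at -2.40 to *Nr5a2* at -0.51, and *Abcc4* at 1.64 lies farthest to the right.

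Hepatocyte markers moved the same way as most of these genes. Of 19 such markers, all tested, 14 fell and 2 rose by adjusted p, beside the 11.6% and 11.5% of all genes tested. These shares also stand beside the counts of other cell markers below. The median log2 fold change of the hepatocyte markers was -0.50. Their summed FPKM was 16080 to 17510 in LOXP and 12170 to 12340 in KO. The most abundant were *Alb*, which fell by 0.27 (adjusted p = 0.00319), *Hpx*, which fell by 1.33 (adjusted p = 4.24e-05), and *Apoa1*, with -0.09 (adjusted p = 0.232). Those that rose were *Fabp1*, a fatty acid binding protein (0.98, adjusted p = 9.68e-04), and *Hpd* (0.43, adjusted p = 0.00645). In bulk RNA, fewer cells of a type and less RNA per cell cannot be told apart. The part of this shift in the levels of the bile acid genes was not tested.

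Markers of other liver cells were present at lower levels. Of 8 cholangiocyte markers, led by *Cldn4*, *Sox9* and *Spp1*, 5 were tested, these 3 fell and 1, *Krt19*, rose in edgeR (adjusted p = 0.0479) though not under DESeq2. The list's summed FPKM was 123.6 to 144.7 in LOXP and 65.7 to 77.0 in KO, mostly from *Cldn4*, with means of 111.1 and 55.8. *Krt7*, *Epcam* and *Cftr* were not tested, having at most 5, 12 and 4 counts in any library. Of 15 macrophage and Kupffer cell markers, led by *Cd14*, *Cd68* and *Lyz2*, 14 were tested. By log2 fold change 9 of these were lower and 5 higher, with a median of -0.13. *Cd68*, *Mpeg1* and *Itgam* fell, and 11 did not pass. *Itgam* had 19, 62 and 68 counts in LOXP and 14, 14 and 14 in KO. In edgeR 0 rose, with 1 higher at an unadjusted p under 0.05 and 1 under DESeq2. The former, *Cd5l*, had 98, 33 and 121 counts in LOXP and 170, 215 and 160 in KO. *C1qa* was also lowest of the LOXP libraries in replicate 2, with 118, 32 and 122 counts, while *Cd14* had 1433, 1502 and 1297. The summed FPKM was 107.9 to 118.0 in LOXP and 89.1 to 98.9 in KO. Of 12 sinusoidal endothelial markers, led by *Cdh5*, *Lyve1* and *Eng*, 11 were tested and 1, *Stab2*, fell, with sums of 30.6 to 32.9 and 28.3 to 30.5. Of 11 stellate cell and fibroblast markers, led by *Dcn*, *Acta2* and *Pdgfrb*, 8 were tested and 0 passed in either direction in edgeR, with 1 higher at an unadjusted p under 0.05 and 0 passing under DESeq2, and with sums of 6.36 to 6.66 and 7.07 to 7.98. Of 10 lymphocyte markers 9 had 0 counts in every library, among them *Cd3e* and *Ms4a1*, and the 8 neutrophil markers had 51 counts in all, with *Ly6g*, *Mpo* and *Retnlg* at 0. The hepatocyte label was thus borne out by *Alb*, the most abundant marker of all, and lymphocyte and neutrophil RNA was at or near 0. The part of any cholangiocyte or macrophage RNA in the results above was not tested.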

How the data were processed

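RNA of 6 cultures of primary hepatocytes, 3 LOXP and 3 KO by the labels, was sequenced paired-end. The study's methods name HISAT2 for mapping and edgeR for testing. The submitters' processing notes also name fastp, StringTie and the build GRCm39, which was taken as that of the table's positions. Versions, counting tool and strand setting are not given in the sources used here. The authors deposited 1 table with a raw read count and an FPKM value per gene and library. Both kinds of column, 12 in all, were used.

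The counts were fitted with edgeR 4.0.16 (R 4.3.3). Genes passing filterByExpr (minimum count 10), 14151 of 57180, were normalized by TMM (factors 0.973 to 1.02) and tested by quasi-likelihood (two-sided), with p-values adjusted over all of them after Benjamini-Hochberg. The common biological coefficient of variation was 0.118. CPM values use normalized library sizes. The precision of counts and of the 3-count limit covers counting error only.

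The 10 genes, the lists, the tests and the alternatives were chosen with earlier results of these data known. Named are every gene of the set, *Sting1*, pathway genes past the threshold and the most abundant of each role, flanking genes past it, 3 markers per cell type and 3 genes most like *Baat*. *Mrpl50*, *Zfp189* and *Msantd3*, the pathway genes *Csad*, *Sult2a8*, *Slco1a1*, *Abcg5*, *Rxra* and *Klb*, and the markers *Fabp1*, *Hpd*, *Krt19*, *Krt7*, *Epcam*, *Cftr*, *Mpeg1*, *Itgam*, *Cd5l*, *C1qa* and *Stab2* were named outside that rule, after their values were seen. One listed hepatocyte marker did not match a symbol. A few genes, 1 of them flanking *Baat*, are counted in lists but not reported here. Promoters came from RefSeq (GRCm38.p6) and transcripts from GENCODE M21, and no coordinates were moved between builds.

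Alternatives were DESeq2 1.42.0, upper-quartile factors, 2 filters, a block for the replicate number, limma 3.58.1 with a trend on log2(FPKM + 1) and log2(FPKM + 0.1), and each library left out in turn. The main edgeR fit alone was tested on simulated counts with known fold changes.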

Additional observations from a re-analysis of the deposited data

How the results depend on the processing

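The number of bile acid genes of the set lower by adjusted p, 7, ran from 4 to 6 with one library left out. The number of other pathway genes higher, 5, ran from 2 to 6, and that of flanking genes higher, 2, was 1 without any one library, under DESeq2, with every gene of at least 1 count and with the replicate block. By the 3 criteria, 4 genes of the set were lower, and 2 on the log2(FPKM + 1) scale. *Sting1* ran from -0.26 to 0.11 and changed sign without LOXP replicate 3 (0.06) or KO replicate 3 (0.11). The cause of these shifts was not tested. Requiring at least 10 counts in every library dropped *Cyp8b1*, *Akr1d1*, *Slco1a4* and *Nr0b2*. At this depth *Cyp7a1*, with 2 counts in all, could not be compared. No setting moved the median log2 fold change of all genes by over 0.1.

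The labels number the libraries 1 to 3 in both groups. Deviations of same-numbered libraries correlated at 0.12, 0.0834 and 0.0134, and those of differently numbered libraries at -0.131 to 0.0459. Each KO library was closest to the LOXP library of its number, though LOXP replicate 3 was closer to KO replicate 2 (0.0459). The labels do not say whether same-numbered libraries share anything but the number, and this was not tested. With the replicate block, 7 genes of the set were lower and 1 higher, and 16 other pathway genes were lower and 6 higher. The *Abcg8* call then gave an adjusted p of 0.0521 and that of *Gm12435* 0.0564 (edgeR).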
